A study of Macaca mulatta with 17 samples.

Results

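RNA of the genes that write and read DNA methylation and the Polycomb mark was measured in the uterus of rhesus macaque fetuses at mid-gestation and at term, with and without exposure to bisphenol A (BPA), a plastics monomer with weak estrogenic activity. The set holds 9 genes: DNMT1, UHRF1, DNMT3A, DNMT3B, DNMT3L, EZH2, EED, SUZ12 and MBD2. A gene was found through the symbol in the array's probe descriptions and given by its probe with the highest mean signal over the 17 arrays. This found 8 of the 9 genes among 20217 probes with 17295 distinct symbols. SUZ12 was added outside that rule through the only probe that carries its older symbol, JJAZ1. All animals were female fetuses of healthy dams, and each gave 1 single-color Agilent array. The 5 GD100 BPA-exposed fetuses came from dams given 400 µg deuterated BPA per kg per day in a fruit treat from gestational day (GD) 50 until delivery by caesarean section on GD 100. The 5 GD100 control dams received the ethanol vehicle in the same way over the same days. The 3 GD165 BPA-exposed fetuses had the same dose from GD 100 until vaginal delivery at term, at GD 165 to 168, and the 4 GD165 control dams had vehicle. Stillborn fetuses were left out of the array comparisons. Age and mode of delivery cannot be told apart in this design. Among BPA-exposed fetuses, age also cannot be told apart from the window of exposure, GD 50 to 100 or GD 100 to term. The BPA effects at the ages thus differ in window as well as in age.

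DNMT1 copies methylation onto the new DNA strand after replication, and UHRF1 brings it to sites where only the old strand is methylated. DNMT3A and DNMT3B set methylation on unmethylated DNA, and DNMT3L, which has no catalytic activity of its own and is best known from germ cells, stimulates them. EZH2 is the catalytic subunit of Polycomb repressive complex PRC2, which methylates a lysine of histone H3, EED binds that mark and activates the enzyme, and SUZ12 holds the complex together. MBD2 binds methylated CpG sites and recruits a histone deacetylase complex.

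The array is a macaque design, but the descriptions of these probes name human RefSeq transcripts, and 4 of the 9 genes had more than 1 probe. The first 30 of the 60 bases are shown for the 5 genes whose RNA fell with age and for both probes of MBD2 and of DNMT3L, since for MBD2 the choice of probe sets the result. Capitals are not used, because no base is singled out.
DNMT1: gtgtgaggttcgcttatcaactaatgattt
UHRF1: tagggaagaatgagacaattttgtgtaggc
DNMT3A: agggctccttgtggtgggatcagaactaat
DNMT3B: aaactgtgccttgtttcaacagtttttgct
EZH2: tgaatttttgcaataatgcagtatggtaca
DNMT3L, brighter probe: atttttcaaccgaactcacttcctctttat
DNMT3L, other probe: ggcagcgggttctggtttcggaagaagaat
MBD2, testis-specific transcript: ttaccatccacctcatttcagaagtgtata
MBD2, both transcripts: acctggcctggcctccaaaatattaacatt
The MBD2 probe with the higher mean signal is described as matching only the testis-specific transcript, and the other probe as matching that and the full-length transcript. For the other probe the annotation lists a genome match over 23 of the 60 bases. The higher mean comes from GD100 BPA-exposed replicate 1, with a signal of 1515 against 102 on the other probe. Apart from GD100 control replicate 1 (101 against 86), the testis-specific probe was the dimmer on every other array. The annotation places the UHRF1 probe on chromosome 12, whereas RefSeq places macaque UHRF1 on chromosome 19. The listed chromosome also differs from the macaque one for DNMT3A, DNMT3B, EZH2, EED, SUZ12 and the brighter DNMT3L probe. It is the same only for DNMT1 and MBD2. Positions were thus not used, and the identity of the probes rests on the descriptions. The exon or UTR of each probe was not determined here.

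Levels are log2 processed signals with all arrays brought to 1 common 75th percentile, and they are compared between arrays for 1 probe at a time, never between probes. The share of spots well above background ran from 83.8 to 89.0% of an array, the median signal to background ratio was 17.5 to 24.2, and the number of arrays limits the precision. The uterine markers ESR1, HOXA10, HOXA11, PAX8 and EMX2 were well above background on all 17 arrays, and the progesterone receptor PGR on 3 of the GD165 arrays and on 0 of the GD100 arrays. GD100 BPA-exposed replicate 1 stood apart in the 3 germ cell markers with a probe (DDX4, DAZL and NANOG). Their mean level was 9.89 on that array and 2.09 to 5.43 on the other arrays. In controls, skeletal muscle, leukocyte and erythroid markers were higher at GD165 by their mean level. The mean level over the 4 skeletal muscle genes was 4.12 to 5.23 in GD100 controls and 7.46 to 13.2 in GD165 controls, over the leukocyte genes 7.87 to 8.43 and 9.05 to 9.55, and over the erythroid genes 7.65 to 8.93 and 9.66 to 11.2. In BPA-exposed fetuses the ages overlapped for each of these lists. The ranges there were 4.72 to 7.45 and 6.22 to 12.3 for skeletal muscle, 7.88 to 8.81 and 8.56 to 9.87 for leukocytes, and 8.25 to 9.83 and 9.22 to 10.8 for erythroid genes. The part of these cells in the differences with age was not tested. In bulk tissue, fewer cells of a type and less RNA per cell cannot be told apart.

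RNA of the genes for maintenance methylation was compared first between the ages in controls. UHRF1 and DNMT1 both fell from GD100 to GD165, UHRF1 to a lower share of its earlier level. In controls, the UHRF1 level was 12.07, 11.83, 12.29, 12.13 and 11.71 at GD100 and 9.88, 10.56, 10.85 and 9.31 at GD165. In BPA-exposed fetuses it was 11.65, 11.97, 12.00, 11.83 and 11.70 at GD100 and 10.57, 10.14 and 10.35 at GD165. All 7 arrays at GD165 lay below all 10 at GD100, and the 4 GD165 controls were spread more widely than any other group. UHRF1 fell by 1.85 in controls on the log2 scale (SE 0.24, limma adjusted p = 9.8e-05), to a level 3.62-fold lower. The DNMT1 level in controls was 15.26, 15.13, 15.35, 15.17 and 15.31 at GD100 and 14.82, 14.85, 15.02 and 14.42 at GD165. In BPA-exposed fetuses it was 15.15, 15.25, 15.27, 15.25 and 15.21 at GD100 and 15.01, 14.73 and 14.77 at GD165. The ages did not overlap, but the gap between the highest GD165 array and the lowest GD100 array was narrow. DNMT1 fell by 0.47 in controls (SE 0.11, limma adjusted p = 0.0054), 1.38-fold. This call was lost in 9 of 31 alternative settings, among them slide as a fixed block (adjusted p = 0.012) and leaving out any of GD100 controls 1, 3 and 5 or GD165 controls 1 and 6 (adjusted p from 0.012 to 0.015), with the direction kept in all 31.

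**Figure D1:**
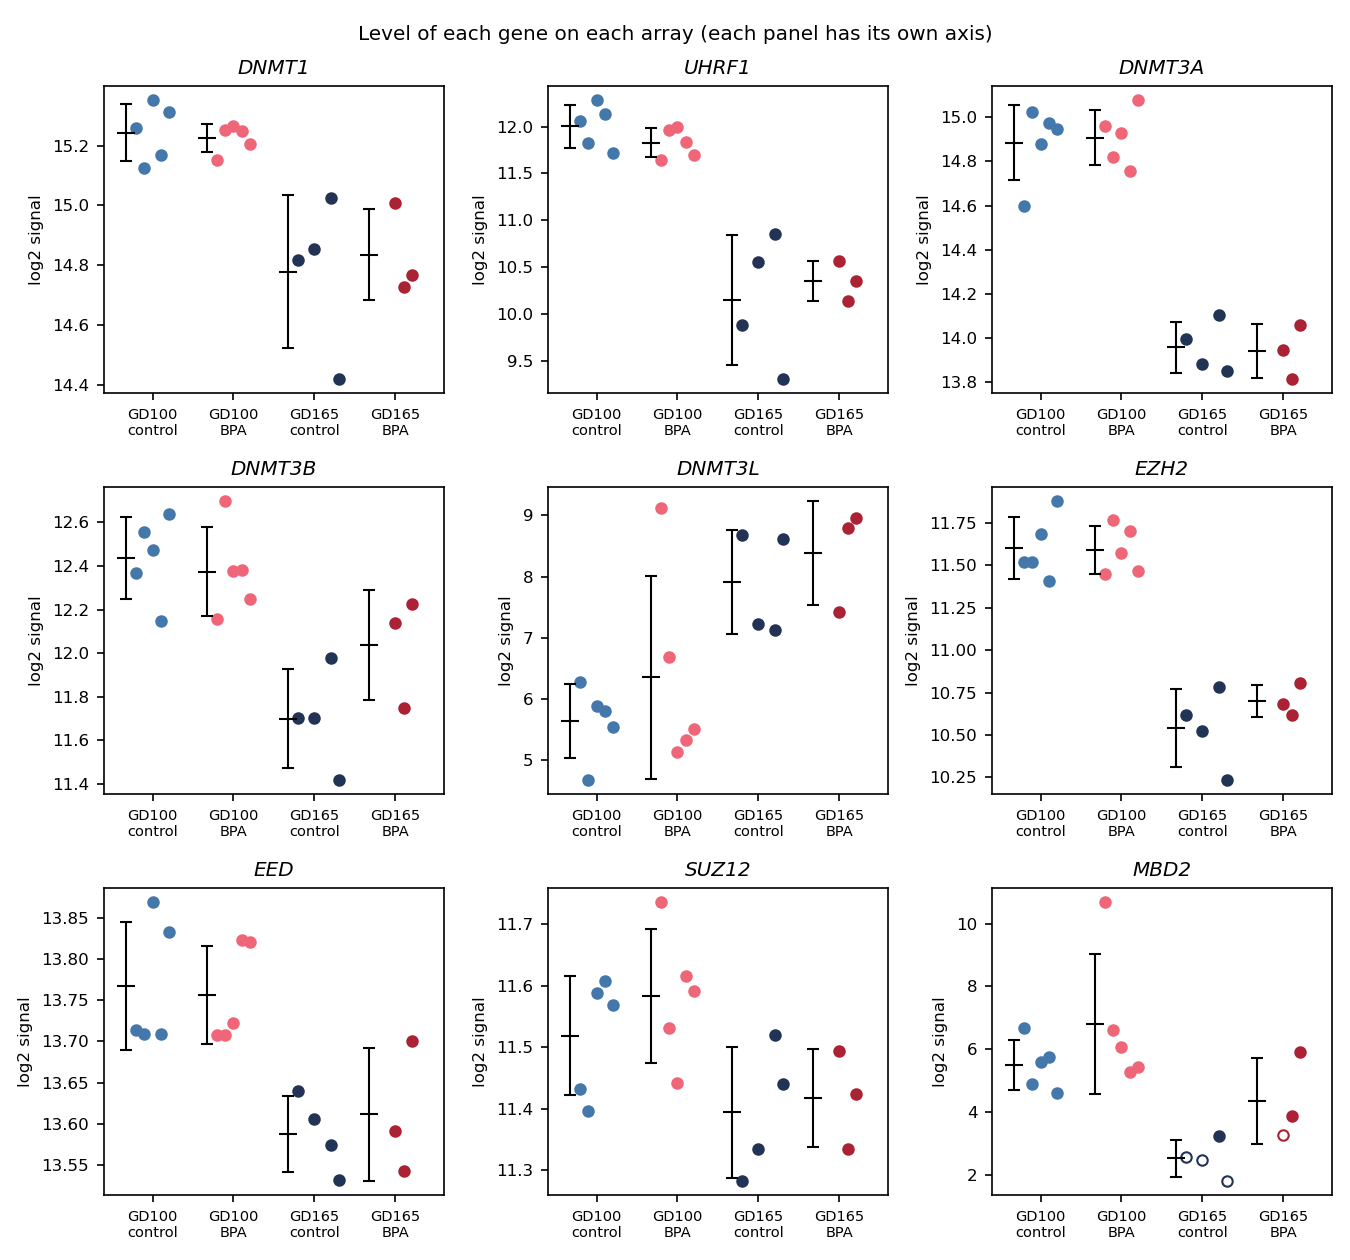
Level of each of the 9 genes on the 17 arrays, in 1 panel per gene with its own y axis (log2 processed signal, scaled). Points are single fetuses, open points are not well above background, and bars are the mean ± SD of the 5 GD100 control, 5 GD100 BPA-exposed, 4 GD165 control and 3 GD165 BPA-exposed arrays. UHRF1, DNMT1, DNMT3A and EZH2 lie lower on all GD165 arrays than on all GD100 arrays. EED does so as well, by a very narrow gap, though its difference with age did not pass.

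The de novo enzymes DNMT3A and DNMT3B fell with age in controls. In controls, the DNMT3A level was 14.60, 15.02, 14.88, 14.97 and 14.95 at GD100 and 14.00, 13.88, 14.11 and 13.85 at GD165. In BPA-exposed fetuses it was 14.96, 14.82, 14.93, 14.76 and 15.08 at GD100 and 13.95, 13.82 and 14.06 at GD165. The arrays fell into a high group at GD100 and a low group at GD165 with no array between. DNMT3A fell by 0.93 in controls (SE 0.099, limma adjusted p = 2.4e-05), 1.90-fold. A dimmer second DNMT3A probe, described as matching transcript variant 4 alone, gave a difference of 0.21 (SE 0.17, adjusted p = 0.44), and with the mean over both probes the DNMT3A call was lost (log2 difference −0.36, adjusted p = 0.026).

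The DNMT3B level in controls was 12.37, 12.55, 12.47, 12.15 and 12.64 at GD100 and 11.70, 11.70, 11.98 and 11.42 at GD165. In BPA-exposed fetuses it was 12.16, 12.70, 12.38, 12.38 and 12.25 at GD100 and 12.14, 11.75 and 12.22 at GD165. The control ages were apart, whereas 1 GD165 BPA-exposed array lay above the lowest GD100 BPA-exposed array. DNMT3B fell by 0.74 in controls (SE 0.14, limma adjusted p = 0.0020), 1.67-fold. In BPA-exposed fetuses the difference with age was −0.34 (SE 0.16, limma adjusted p = 0.14) and did not pass. The difference between these 2 age effects, which is the interaction with BPA, was 0.40 (SE 0.21, limma adjusted p = 0.68).

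DNMT3L differed from the other methyltransferase genes in the sign of its age difference, but did not pass the threshold. In controls its level was 6.28, 4.67, 5.88, 5.80 and 5.55 at GD100 and 8.68, 7.22, 7.13 and 8.62 at GD165. In BPA-exposed fetuses it was 9.12, 6.69, 5.14, 5.33 and 5.50 at GD100 and 7.41, 8.79 and 8.96 at GD165. All GD165 arrays lay above all GD100 arrays except replicate 1 of the GD100 BPA-exposed group, which was the highest of the 17. The difference was 2.28 in controls (SE 0.70, 95% CI 0.79 to 3.76, limma adjusted p = 0.029) and 2.03 in BPA-exposed fetuses (SE 0.76, adjusted p = 0.070). Without GD100 BPA-exposed replicate 1 the difference passed in both, at 2.28 (adjusted p = 0.0031) and 2.72 (adjusted p = 0.0033). The second DNMT3L probe gave 1.93 in controls (SE 0.60, adjusted p = 0.032), so both probes had the same sign and neither passed.

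In PRC2, the catalytic subunit EZH2 fell with age, while the smaller differences of its partners EED and SUZ12 did not pass. The EZH2 level in controls was 11.52, 11.52, 11.68, 11.41 and 11.88 at GD100 and 10.62, 10.53, 10.78 and 10.23 at GD165. In BPA-exposed fetuses it was 11.45, 11.77, 11.57, 11.70 and 11.46 at GD100 and 10.68, 10.61 and 10.80 at GD165. The ages were well apart in both treatment groups. EZH2 fell by 1.06 in controls (SE 0.12, limma adjusted p = 3.3e-05), 2.09-fold, and by 0.89 in BPA-exposed fetuses (SE 0.13, adjusted p = 3.6e-04). EED lay at 13.71 to 13.87 in GD100 controls and at 13.53 to 13.64 in GD165 controls, a difference of −0.18 (SE 0.065, 95% CI −0.32 to −0.041, adjusted p = 0.062) that did not pass although the groups did not overlap. A second EED probe gave −0.76 (SE 0.39, adjusted p = 0.19). SUZ12 lay at 11.40 to 11.61 and 11.28 to 11.52, which overlap, with a difference of −0.12 (SE 0.080, 95% CI −0.30 to 0.046, adjusted p = 0.31). The intervals of SUZ12 and of the brighter EED probe do not reach the EZH2 interval (−1.31 to −0.81), whereas that of the second EED probe (−1.59 to 0.069) spans it. A difference between EZH2 and its partners was not itself tested.

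MBD2 gave different pictures on its 2 probes. On the probe for the testis-specific transcript, the level in controls was 6.68, 4.91, 5.58, 5.74 and 4.62 at GD100 and 2.56, 2.48, 3.24 and 1.80 at GD165. Only the GD165 control at 3.24 was well above background among those 4. In BPA-exposed fetuses the level was 10.69, 6.60, 6.06, 5.27 and 5.42 at GD100 and 3.28, 3.86 and 5.90 at GD165, where the array at 3.28 was not well above background. The GD165 controls lay below all other arrays of both ages, and GD100 BPA-exposed replicate 1 lay far above. The age difference in controls was −2.98 (SE 0.91, limma adjusted p = 0.029), which did not pass, and the GD165 mean rests mostly on signals not well above background. On the probe for both transcripts all 17 arrays lay between 6.15 and 6.82, and the difference with age in controls was −0.03 (SE 0.12, adjusted p = 0.89).

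The germ cell markers, RNA-binding proteins of germ cells in the case of DAZL and DDX4, moved with the testis-specific MBD2 probe. DAZL was at 10.80 and DDX4 at 9.97 on GD100 BPA-exposed replicate 1, and no other array had DAZL above 5.66 or DDX4 above 6.19. DAZL was not well above background on any GD165 control, where it was at most 1.74. NANOG, the third, was at 8.89 on GD100 BPA-exposed replicate 1, at 4.80 on replicate 2, and not well above background on the other 15 arrays. DNMT3L was high on that same array, but was also high at GD165, where these markers were low. The part of germ cells in the MBD2 and DNMT3L values was not tested.

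**Figure D2:**
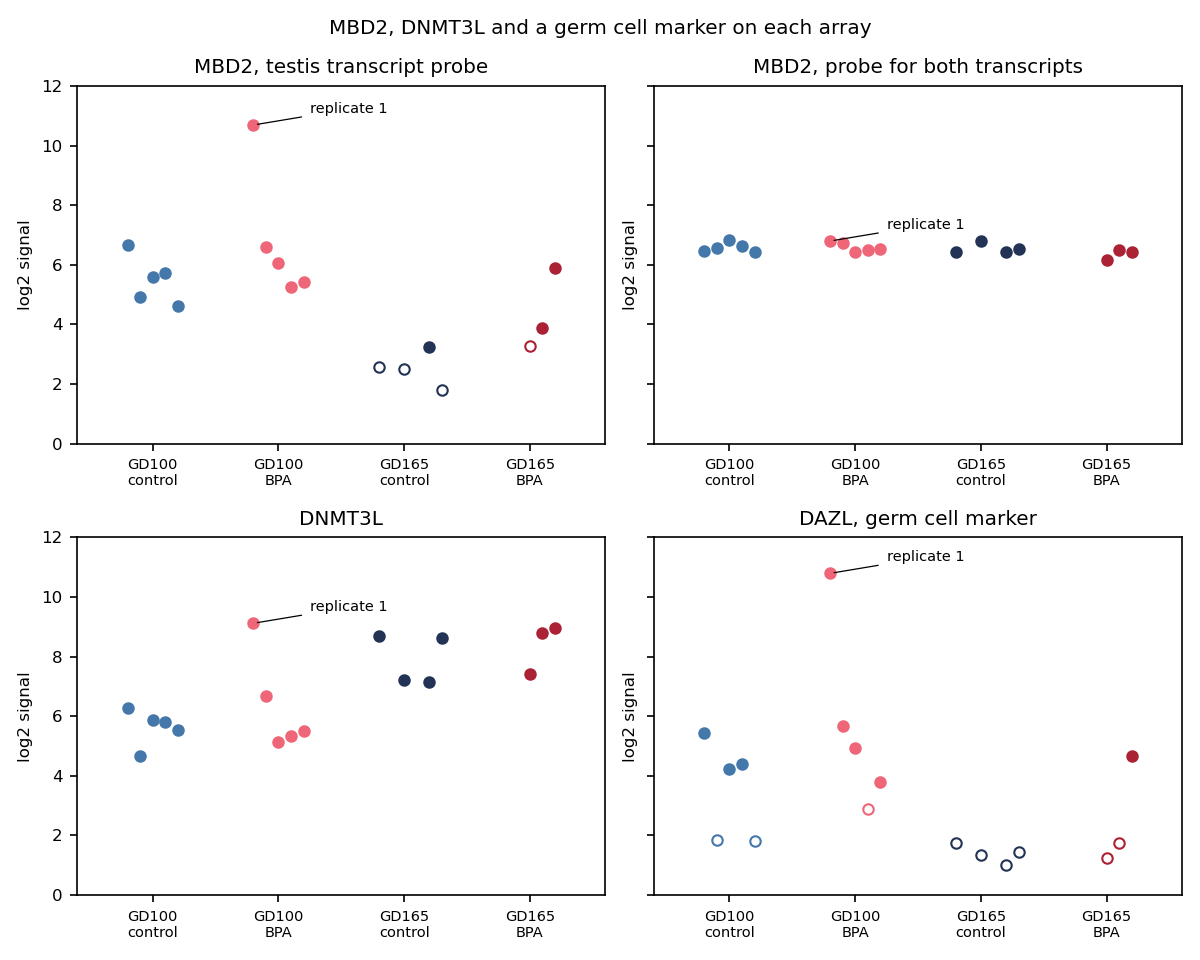
Log2 level (scaled, shared y axis) on each of the 17 arrays for the MBD2 probe of the testis-specific transcript, the MBD2 probe of both transcripts, DNMT3L and the germ cell marker DAZL, by group, with open points not well above background. GD100 BPA-exposed replicate 1 is highest in the first, at 10.69, in DNMT3L, at 9.12, and in DAZL, at 10.80, but not set apart on the probe for both MBD2 transcripts, at 6.80.

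Counted together, 5 of the 9 genes passed in controls, all lower at GD165 (UHRF1, EZH2, DNMT3A, DNMT3B and DNMT1). Of all 20217 probes, 11.5% passed, 5.2% lower and 6.32% higher. The median difference was −0.74 over the 9 genes and 0.0046 over all probes. The ages did not overlap for 8 of the 9 genes, all but SUZ12, against 19.4% of all probes. MBD2 is counted here by its testis-specific probe, and on its other probe the ages overlapped. In the BPA-exposed fetuses, 3 of the 9 genes passed, all lower (DNMT3A, EZH2 and UHRF1), against 9.68% of all probes, with 4.86% lower and 4.82% higher. DNMT3A fell by 0.97 (SE 0.11, limma adjusted p = 7.5e-05), and UHRF1 fell by 1.48 (SE 0.26, adjusted p = 0.0014). DNMT1 differed by −0.39 (SE 0.11, adjusted p = 0.026), EED by −0.15 (adjusted p = 0.16), SUZ12 by −0.17 (adjusted p = 0.19) and the testis-specific MBD2 probe by −2.46 (SE 0.99, adjusted p = 0.090). The median was −0.39 over the 9 genes and −0.047 over all probes, and 5 of the 9 did not overlap, against 27.2% of all probes. These comparisons use different animals for control and exposed fetuses, and a gene that passed in 1 of them is not thereby shown to differ between them.

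**Figure D3:**
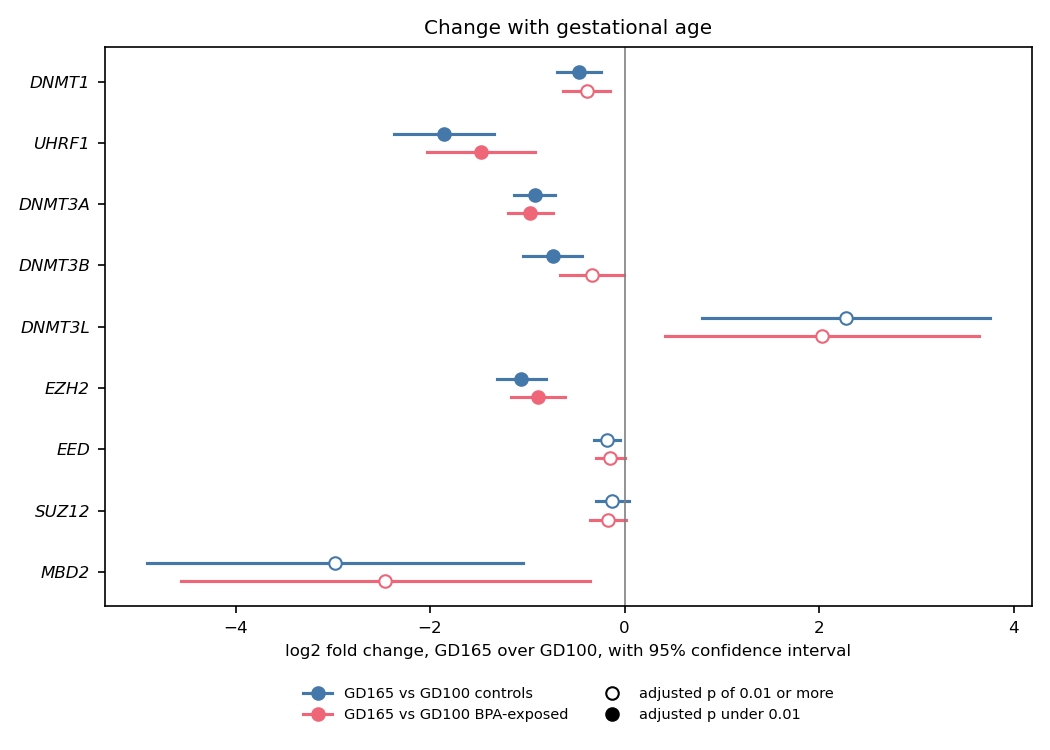
Difference with age (GD165 minus GD100, log2) for each of the 9 genes, with its 95% confidence interval, in controls and in BPA-exposed fetuses. Filled symbols passed an adjusted p of 0.01 in limma over all probes. The 5 filled control symbols and the 3 filled BPA-exposed symbols lie below 0.

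The arrays lay on 6 slides, and some slides held both ages. Within slides 3 and 5, each with 1 control of either age, the differences were −1.73 and −1.83 for UHRF1, −1.16 and −1.26 for EZH2 and −0.996 and −0.95 for DNMT3A. They were −0.77 and −0.93 for DNMT3B and −0.50 and −0.50 for DNMT1. Each of these genes was thus lower at GD165 within both slides, as it was over all slides. Within slide 2, the BPA-exposed difference was −1.35 for UHRF1, −0.66 for EZH2, −1.02 for DNMT3A and −0.02 for DNMT3B. With slide as a fixed block, the difference in BPA-exposed fetuses for UHRF1 was −1.35 (limma adjusted p = 0.014), and in controls all but DNMT1 of the 5 genes still passed (adjusted p from 6.7e-04 to 0.0097).

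Whether BPA changed these genes was compared at each age. At GD100, 0 of the 9 genes passed, as did 0% of all probes (0 of 20217, smallest limma adjusted p = 0.58). At an unadjusted p under 0.05 there were 0 of the 9 genes and 3.79% of all probes, and exposed and control arrays overlapped for all 9 genes, whereas they did not for 0.782% of all probes. The intervals of the difference (exposed minus control, log2) were narrow for most genes. The 95% CI was −0.23 to 0.19 for DNMT1, −0.18 to 0.22 for DNMT3A, −0.35 to 0.22 for DNMT3B and −0.66 to 0.31 for UHRF1. In PRC2 it was −0.25 to 0.23 for EZH2, −0.14 to 0.12 for EED and −0.096 to 0.23 for SUZ12. DNMT3L (0.72, 95% CI −0.68 to 2.12) and the testis-specific MBD2 probe (1.30, 95% CI −0.52 to 3.13) had wide intervals. Without GD100 BPA-exposed replicate 1 their differences were 0.03 and 0.33.

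At GD165, 0 of the 9 genes passed and 0% of all probes (smallest limma adjusted p = 0.12), with 0 of the 9 genes and 8.61% of all probes at an unadjusted p under 0.05. The DNMT3B levels of the exposed fetuses, given above, overlapped those of the controls, with a difference of 0.34 (SE 0.16, 95% CI −0.0089 to 0.68, adjusted p = 0.59). The 95% CI was −0.20 to 0.31 for DNMT1, −0.26 to 0.22 for DNMT3A, −0.38 to 0.79 for UHRF1 and −1.21 to 2.16 for DNMT3L. It was −0.13 to 0.45 for EZH2, −0.13 to 0.18 for EED and −0.17 to 0.22 for SUZ12. The testis-specific MBD2 probe was the only one of the 9 whose groups did not overlap, against 7.31% of all probes, with a difference of 1.83 (95% CI −0.37 to 4.03, adjusted p = 0.65), and 1 of the 4 controls and 2 of the 3 exposed arrays were well above background. DAZL was well above background on 1 of these 3 exposed arrays, replicate 5, which was also the highest for MBD2. The difference of the BPA effects between the ages passed for 0 of the 9 genes and for 0% of all probes in limma, with 0 of the 9 and 7.83% at an unadjusted p under 0.05. It was 0.38 for UHRF1 (SE 0.36, adjusted p = 0.85) and 0.17 for EZH2 (SE 0.18, adjusted p = 0.87). In this difference the ages cannot be told apart from the windows of exposure.

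**Figure D4:**
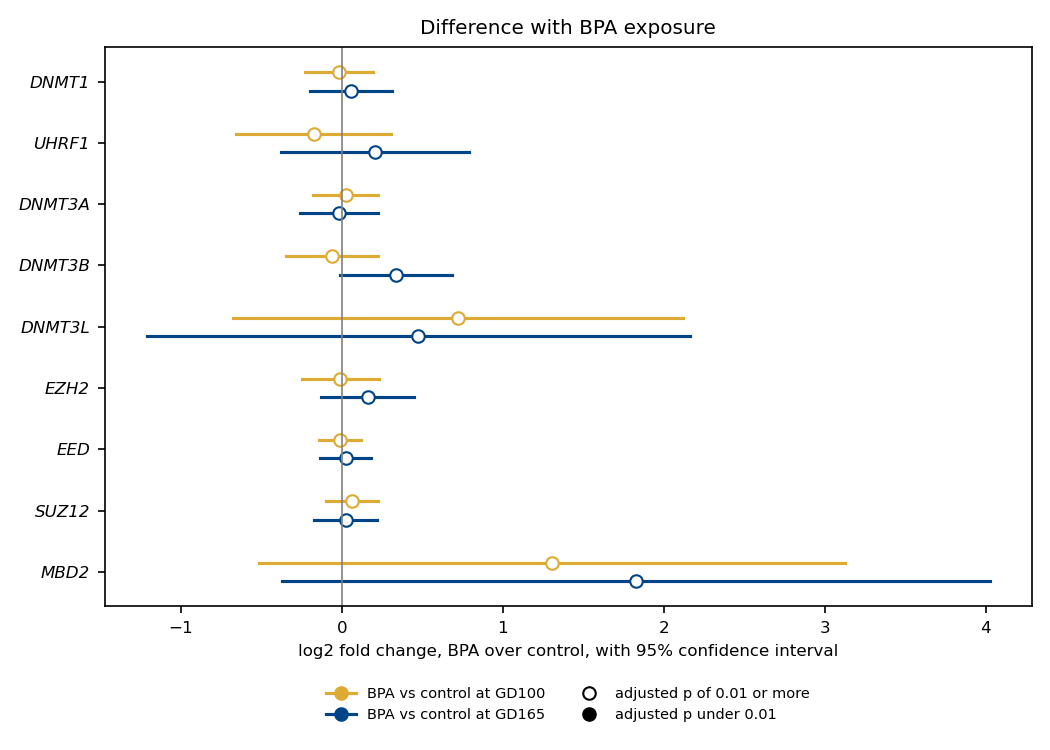
Difference with BPA (exposed minus control, log2) for each of the 9 genes at GD100 and at GD165, with its 95% confidence interval. All intervals include 0, and those of DNMT3L and of the testis-specific MBD2 probe are the widest.

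The genes whose level followed DNMT1, UHRF1, EZH2 and DNMT3B most closely over the 17 arrays were named by Pearson's r, as a description, since all arrays share the age groups. For DNMT1 these were SFRS10, CACNA1G and LYAR, each at r = 0.97, and at 0.92, 0.89 and 0.93 after each array's group mean was taken out. UHRF1 was followed by BNIP1, PJA1 and E2F1, each at r = 0.98, and 0.92, 0.87 and 0.88 within groups. E2F1, a transcription factor of the entry into DNA synthesis, is also 1 of the cell cycle genes described next. For EZH2 they were RACGAP1, C18orf54 and LMO4, each at r = 0.97, and 0.69, 0.69 and 0.72 within groups. RACGAP1 acts in cytokinesis. For DNMT3B they were PHF6, ESPL1 and E2F7, at r = 0.93, 0.92 and 0.92 and within groups 0.82, 0.76 and 0.79. ESPL1 is separase, which releases sister chromatids. Among the 9 genes, the pairs with the highest r within groups were DNMT1 and UHRF1, at r = 0.95 (0.83 within groups, n = 17), and DNMT3B and EZH2, at r = 0.91 (0.85). The other pairs with r above 0.91 had lower values within groups. They were DNMT1 and EZH2 at 0.93 (0.72), UHRF1 and EZH2 at 0.94 (0.48), and DNMT3A and EZH2 at 0.93 (0.15).

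A list of 20 cell cycle genes, of which 19 had a probe, moved with age. All 19 fell in controls, with a median of −1.18, and all 19 fell in BPA-exposed fetuses, with a median of −1.09, beside the 5.2% and 4.86% of all probes lower. In controls the proliferation marker MKI67 fell by 1.68 (SE 0.25, limma adjusted p = 2.5e-04), the topoisomerase TOP2A by 1.26 (SE 0.15, adjusted p = 4.0e-05) and the replication clamp PCNA by 0.81 (SE 0.19, adjusted p = 0.0060). When the fit held just the 2 age groups of controls, 12 of the 19 passed in controls, against 5.8% of all probes. In BPA-exposed fetuses 10 passed with slide as a fixed block and 10 without scaling, against 2.53% and 8.09% of all probes. The mean level of the list was 11.89 to 12.16 in GD100 controls and 10.55 to 11.25 in GD165 controls, with no overlap, and 11.92 to 12.06 and 10.79 to 11.06 in BPA-exposed fetuses. Over the 17 arrays, r with this mean was 0.97 for UHRF1, 0.96 for EZH2, 0.95 for DNMT3A, 0.90 for DNMT1 and 0.83 for DNMT3B. With group means taken out it was 0.76, 0.50, 0.23, 0.55 and 0.40. Between BPA-exposed and control fetuses 0 of the 19 passed at either age in limma. At an unadjusted p under 0.05 there were 0 at GD100 and 2 at GD165, against 3.79% and 8.61% of all probes. The part of cell division in the fall of the 5 genes was not tested.

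Of 50 other genes of the DNA methylation and Polycomb systems, 46 had a probe. In controls 5 rose and 5 fell, against 6.32% and 5.2% of all probes, with a median of −0.12 over the 46. The largest changes were in GADD45A, a stress-response gene linked to DNA demethylation, which rose by 1.85 (SE 0.22, limma adjusted p = 4.6e-05), and in HELLS, a chromatin remodeller needed for DNA methylation, which fell by 1.04 (SE 0.16, adjusted p = 3.1e-04). Of 19 genes of PRC1, a Polycomb complex that reads the PRC2 mark only in the forms with a chromobox subunit, 2 passed, a share near that of all probes. They were CBX7, a chromobox reader of that mark, higher by 0.96 (SE 0.13, adjusted p = 1.6e-04), and PCGF5, higher by 0.68 (SE 0.11, adjusted p = 4.1e-04). Of 8 further genes of PRC2, 1 rose and 2 fell, against 6.32% and 5.2% of all probes. EZH1, the other catalytic subunit, rose by 0.48 (SE 0.097, adjusted p = 0.0024), and PHF19, an accessory subunit, fell by 0.50 (SE 0.11, adjusted p = 0.0046). RBBP4 also fell and passed, with a log2 difference of −0.33 to −0.23 over the reported fit and the alternatives. EZH1 thus moved opposite to EZH2 in controls. TET1, which oxidizes methylcytosine, fell by 0.61 (SE 0.14, adjusted p = 0.0069), and ZBTB4, a zinc finger reader of methylated DNA, rose by 0.32 (SE 0.066, adjusted p = 0.0032). None (0) of the 4 genes that remove the Polycomb marks passed, against 11.5% of all probes, and 4 genes are too few to set against that share.

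In BPA-exposed fetuses 6 of the 46 rose and 5 fell with age, against 4.82% and 4.86% of all probes, with a median of −0.060. GADD45A rose by 1.56, CBX7 by 1.09, PCGF5 by 0.65 and EZH1 by 0.58, and HELLS fell by 1.11. GADD45B rose by 0.62 (limma adjusted p = 0.0057), and the PRC2 accessory gene MTF2 fell by 0.58 (adjusted p = 0.0076) and the chromobox gene CBX6 by 0.48 (adjusted p = 0.0039). GADD45A, CBX7 and HELLS passed in both age comparisons under all 31 alternatives, whereas EZH1, PHF19, TET1 and ZBTB4 in controls did not pass without scaling (adjusted p from 0.021 to 0.090). In controls the call was lost in 13 of 31 alternatives for TET1, 12 for RBBP4, 9 for PHF19, 7 for ZBTB4, 4 for EZH1 and 1 for PCGF5. In BPA-exposed fetuses the call was lost in 14 of 31 alternatives for MTF2, 9 for GADD45B and 7 for CBX6. With slide as a fixed block, MTF2 (adjusted p = 0.098), GADD45B (0.085), CBX6 (0.049), PCGF5 (0.050) and EZH1 (0.024) did not pass there. Between BPA-exposed and control fetuses 0 of the 46 passed at GD100 and 0 at GD165 in limma, with 2 and 2 at an unadjusted p under 0.05, against 3.79% and 8.61% of all probes.

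**Figure D5:**
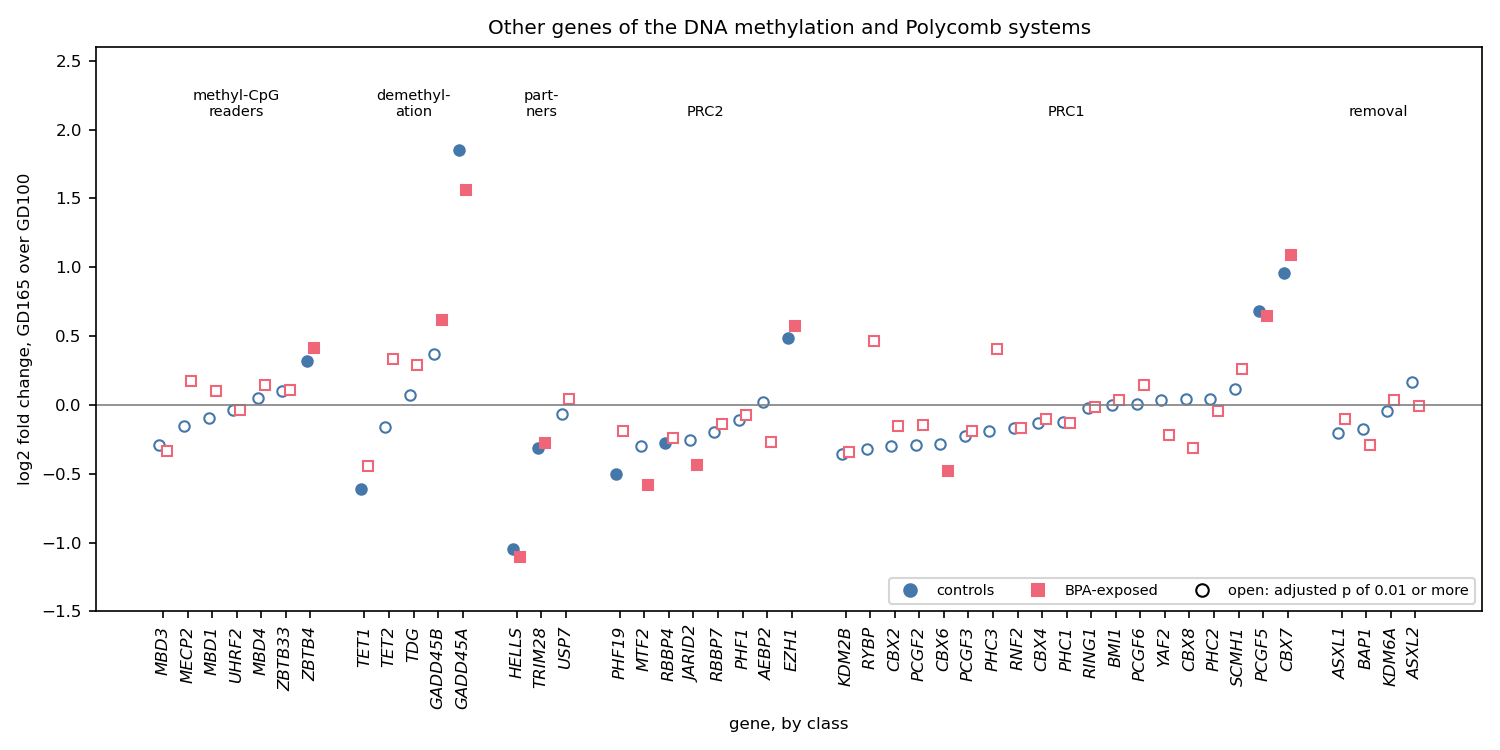
Difference with age (GD165 minus GD100, log2) for 46 other genes of the 2 systems by class, with circles for controls and squares for BPA-exposed fetuses, filled where the adjusted p was under 0.01. In controls, GADD45A, at 1.85, and CBX7, at 0.96, lie highest and HELLS, at −1.04, lowest.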

How the data were processed

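Total RNA of 17 fetal uteri was measured on as many Cy3 single-color arrays. The authors deposited linear intensity values as Agilent Feature Extraction 9.5 (per the submitters' processing notes) wrote them, background-subtracted and not scaled between arrays. The authors' table holds the same signals (711467 of 711467 identical). Here control spots and 171 outlier spots were left out, log2 intensities were averaged over the 2 spots of each probe, and each array's 75th percentile was subtracted and their mean, 12.62, added back. limma 3.58.1 in R 4.3.3 (lmFit, eBayes) was fitted to 20217 probes on 17 arrays in 4 groups, tests were two-sided, and p was adjusted by Benjamini and Hochberg over all probes with a threshold of 0.01. The test was checked on simulated data. The error-weighted test of the study's software was not repeated. Genes were named through the probe descriptions. All 9 members are named, and for 4 members the 3 genes with the highest r. Of the other genes of the systems, up to 8 called with the largest change in each comparison are named, and RBBP4 in controls besides. MKI67, TOP2A and PCNA were picked as examples. The members, lists and tests were chosen with earlier results of these data known. The alternatives changed the background correction, scaling, filter, outlier spots, samples in the fit, moderation, weights, slide, replicate number, threshold, probe choice, or left out 1 animal.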

Additional observations from a re-analysis of the deposited data

Results flagged for a closer look

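GD100 BPA-exposed replicate 1 lay far from the other 4 arrays of its group for the MBD2 probe of the testis-specific transcript, at a log2 level of 10.69 against 6.60 for the nearest array. The gap was 0.754 of the group's whole range. Of 27 groups of 4 or 5 arrays checked over the 9 genes, 1 stood out in this way. Chance gives about 1 in 20 such groups, and 1 of 27 is near that share. The probe was also chosen by its mean signal, which was 1515 on this array and 3.6 to 101 on all others. The flag thus rests on a probe chosen through the signal of GD100 BPA-exposed replicate 1. The germ cell markers DAZL, DDX4 and NANOG were also highest on that array, and their part was not tested. Without it the BPA difference of MBD2 at GD100 was 0.33 in place of 1.30.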

How the results depend on the processing

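Of 31 alternatives (14 settings and leaving out each of 17 animals), all kept UHRF1, EZH2 and DNMT3B past the threshold in controls and 30 kept DNMT3A, with the exception given above. Genes past the threshold numbered 5 of 9 in controls, 4 to 7 under the alternatives, and 3 in BPA-exposed fetuses, 2 to 4. UHRF1 in BPA-exposed fetuses was also lost without GD165 BPA-exposed replicate 4 (adjusted p = 0.010). DNMT3L and MBD2 passed in controls when the fit held just the compared groups (adjusted p = 0.0088 and 0.0029), at 0.05 and without GD100 BPA-exposed replicate 1. Of the 46 other genes, 10 passed in controls and 11 in BPA-exposed fetuses; without scaling it was 4 and 7, with only the compared groups 4 and 5, with slide as a fixed block 5 and 3, and with the replicate block 4 and 7. Leaving out 1 animal gave 5 to 11 and 4 to 11. Over all probes, the 2328 called in controls became 1531 without scaling, 1172 with only the compared groups, 1233 with slide as a fixed block, 958 with the replicate block and 4279 at 0.05, and the 1956 in BPA-exposed fetuses 1176 with only the compared groups, 512 with slide as a fixed block and 4255 at 0.05. Leaving out 1 animal gave 1512 to 2370 and 994 to 2131. Without scaling, 76.2% of the calls in BPA-exposed fetuses were higher in place of 49.8%, and the median of all probes was 0.13. The cause was not tested.

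The labels do not say whether a shared replicate number pairs animals. The r of deviations was −0.17 to 0.16 (median 0.027) for 19 pairs with the same number. For 88 pairs with different numbers it was −0.21 to 0.23 (median −0.021). These ranges overlap, and such correlations cannot show what a number stands for. With the replicate block DNMT1 in controls was −0.38 (adjusted p = 0.027), and 4 of the 9 genes passed.

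Signs turned only for differences that passed neither as reported nor under the alternative that turned them, where the smallest adjusted p was 0.69. For the BPA difference at GD100, EZH2 was 0.0055 with normexp, DNMT3A −0.0081 scaled to the median, −0.017 without scaling and −0.052 over the mean of its probes, DNMT1 0.014 with quantile normalization and 0.036 with slide as a fixed block, and EED 0.0034 with quantile normalization and 0.024 over the mean of its probes. At GD165, DNMT3A was 0.0085 scaled to the median and 0.14 without scaling, and with the replicate block DNMT1 was −0.060 and UHRF1 −0.15. For the difference of the BPA effects, MBD2 was −0.66 with normexp, DNMT3A 0.017 and SUZ12 0.016 scaled to the median, 0.16 and 0.16 without scaling, SUZ12 0.092 and DNMT3L 0.0093 with slide as a fixed block, and DNMT1 −0.041 and DNMT3L 0.60 with the replicate block. For the age difference in BPA-exposed fetuses without scaling, EED was 0.037 and SUZ12 0.015. Leaving out 1 animal gave, at GD100, DNMT1 −0.048 to 0.0086, DNMT3A −0.049 to 0.060, EZH2 −0.060 to 0.058 and EED −0.027 to 0.015, at GD165, DNMT1 −0.062 to 0.14, DNMT3A −0.078 to 0.044, UHRF1 −0.077 to 0.44, EED −0.021 to 0.058 and SUZ12 −0.015 to 0.065, and for the difference of the effects, DNMT1 −0.043 to 0.16, DNMT3A −0.10 to 0.030, DNMT3L −0.55 to 0.45, EED −0.010 to 0.069 and MBD2 −0.25 to 1.49.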

Other observations

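By the same measure, and looked up after their values were seen, the genes whose level over the 17 arrays was most like the testis-specific MBD2 probe were LOC340602, PRAME and PSMA8, at r = 0.97, 0.96 and 0.95 (0.97, 0.92 and 0.90 with group means taken out). For DNMT3L the closest was INSL6, at r = 0.94 (0.87). GD100 BPA-exposed replicate 1 is one of the points.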
